A study of Mus musculus with 20 samples.

Results

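The collagen chain genes are the protein-coding mouse genes whose symbol follows the pattern Col, a type number, a and a chain number. They were chosen by type and symbol alone, and 44 of the 54304 genes in the table met this rule. RNA was sequenced from 2 sorted populations of stromal cells that carry the receptor PDGFRb, taken from gonadal fat depots of males. FIPs (fibro-inflammatory progenitors) were sorted as LY6C+ cells and APCs (adipocyte precursor cells) as LY6C- and CD9- cells, after cells with CD45 or CD31 were gated away. The groups were FIPs of Mural-Zfp423 transgenic mice, FIPs of control mice, APCs of Mural-Zfp423 transgenic mice and APCs of control mice, with 5 libraries each.

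What all 4 groups shared was the high-fat diet, which supplied 60% of energy as fat for 1 month, and housing at 30 °C. The labels give an age of 8 weeks and do not say whether this was at the start or the end of the diet. The line is named for Zfp423, a transcription factor that holds back thermogenic genes in white fat precursors, placed in mural cells. The sources used here give neither the driver of the transgene nor the alleles of the controls. Each library pooled RNA of 2 mice, and 10 mice were used per genotype. Within a genotype, FIP and APC pools therefore came from shared mice, and which ones did is not stated. The p-values treat the 20 libraries as independent and measure the spread between pools.

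Collagens are extracellular proteins in which 3 chains wind into a triple helix, and different types build different structures. Fibrillar chains form the ropes that carry tension, type IV chains form the sheet of the basement membrane, and type VI chains form beaded filaments that link cells to that sheet. The fibril-associated chains (FACITs, fibril-associated collagens with interrupted triple helices) sit on the surface of fibrils. Fat tissue is rich in type VI collagen, each fat cell is wrapped in a basement membrane, and stromal progenitors make much of both. Transcript levels do not measure the deposited protein.

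Values are log2 CPM (CPM, a gene's read count scaled to the depth of its library, on a log2 scale), and a CPM of 1 or less is listed as 0. Differences are in log2 CPM, FIPs minus APCs or labelled transgenic minus control, and are given ± their SE from a limma fit over all 20 libraries, 5 per group. Adjusted p-values are Benjamini-Hochberg values over all 17435 genes tested, and a chain passed when its value was under 0.05. Depth was read off the steps between low values and came to 7.82 to 8.5 megareads in FIPs labelled transgenic, 6.76 to 8.23 in control FIPs, 6.6 to 8.38 in APCs labelled transgenic and 7.6 to 8.0 in control APCs. Zfp423 itself was not higher in the libraries labelled transgenic. It averaged 5.53 ± 0.04 log2 CPM in FIPs labelled transgenic and 5.47 ± 0.12 in control FIPs (SD, n = 5 each; adjusted p = 0.933), and 4.70 ± 0.27 in APCs labelled transgenic and 4.97 ± 0.17 in control APCs (SD, n = 5 each; adjusted p = 0.108). Genotype is therefore named by its label throughout. The sort genes kept the order of the gates, with Ly6c1 averaging 7.24 log2 CPM in FIPs labelled transgenic, 7.34 in control FIPs, 5.10 in APCs labelled transgenic and 5.64 in control APCs. In APCs, Ly6c1 (-0.53, adjusted p = 0.00161), Ly6c2 (-0.53, adjusted p = 0.00231) and Cd9 (-0.65, adjusted p = 0.00163) were lower with the label, and in FIPs none of them passed. These calls were lost when only the APC groups were fitted. Pecam1, which encodes CD31, averaged 5.98 in control FIPs and 6.61 in control APCs (adjusted p = 0.000716). With the label it averaged 6.37 in FIPs and 6.34 in APCs (adjusted p = 0.883). All 6 markers listed for interstitial progenitors (Dpp4, Pi16, Cd55, Anxa3, Wnt2 and Sema3c) were higher in FIPs in both genotypes. This list was chosen with earlier results of these data known, so it is no independent check of the sort.

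Of the 44 chains, 37 were above 0 in at least 5 libraries and could be tested. Col10a1, the hypertrophic cartilage chain, Col2a1, the main cartilage chain, Col9a1, its fibril-associated partner, Col19a1 and the neuronal Col25a1 were listed at 0 in every library. Col22a1 was above 0 in 1 library only, at 0.51 log2 CPM in replicate 1 of the APCs labelled transgenic. Col9a2 was likewise above 0 in 1 library, at 0.10 log2 CPM in replicate 1 of the control FIPs. A library therefore held between 33 and 37 chains above 1 CPM. The tested chains numbered 10 of 11 fibrillar, 5 of 9 FACIT, 6 of 6 type IV, 6 of 6 type VI, 2 of 3 short-chain network, both multiplexin, 3 of 4 transmembrane, the single anchoring fibril chain Col7a1 and 2 others.

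**Figure D1:**
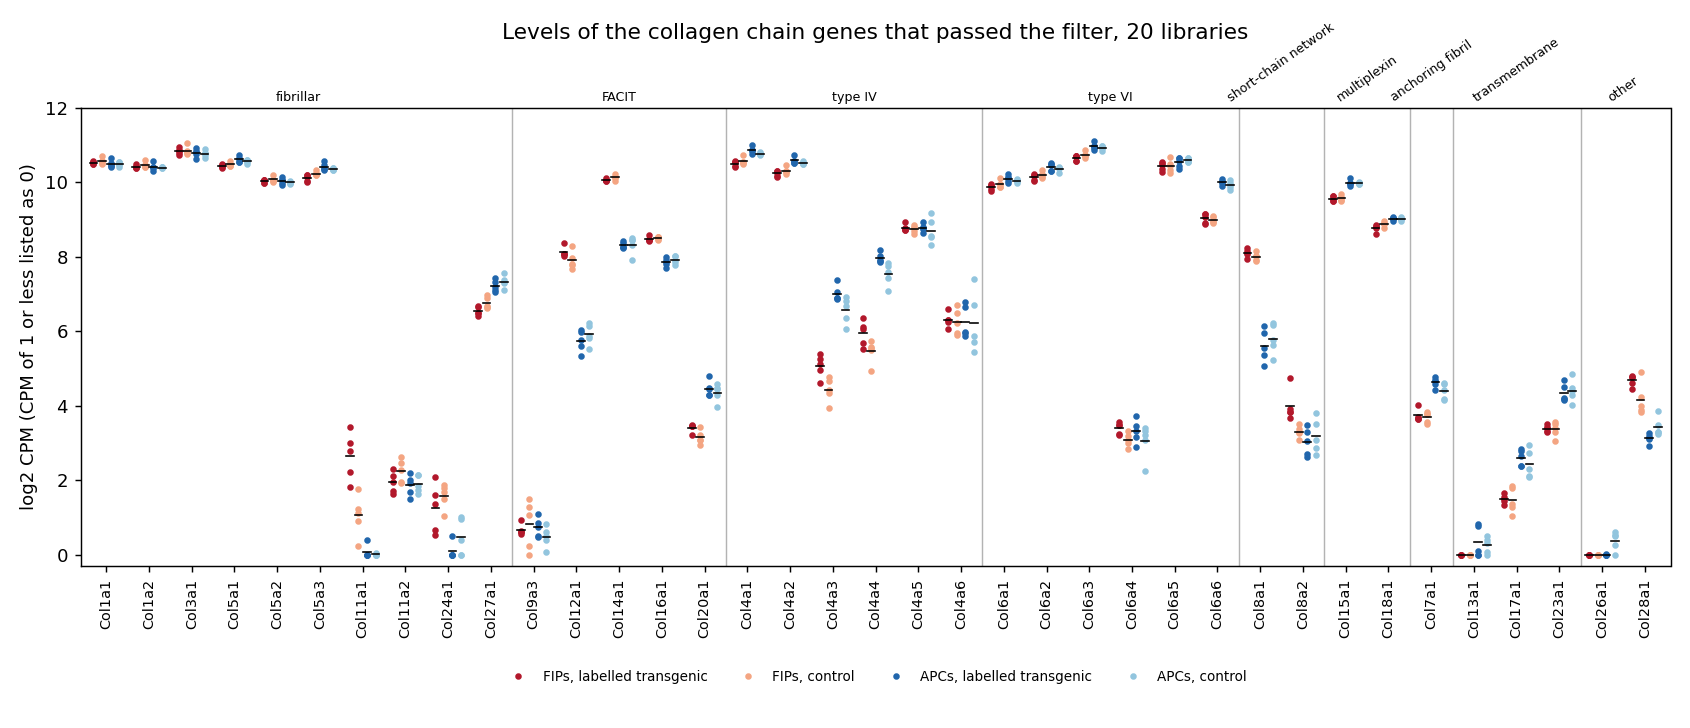
Level of each of the 37 tested collagen chain genes in the 20 libraries, grouped by class along the horizontal axis. Each point is 1 library in log2 CPM, and the short bar is the group mean. Many fibrillar, type IV and type VI chains sit close to 10 in all 4 groups, while Col8a1, Col12a1 and Col14a1 stand higher in the FIPs and Col4a3 and Col4a4 stand higher in the APCs.

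Chains of several types were among the most abundant transcripts of both populations. Of the 30 genes with the highest mean log2 CPM, 11 were collagen chains, although long transcripts collect more reads and these 30 genes had a median exon length of 9502 bp against 3812 bp for all tested genes. Per kilobase of exon, 11 of the 37 tested chains lay above the 99th percentile of protein-coding genes, which was 6.93 log2 CPM per kb. The highest were Col6a1 at 7.86, Col1a1 at 7.80, Col4a1 at 7.77 and Col4a2 at 7.68 log2 CPM per kb, averaged over all libraries. The 11 chains spanned no more than 0.75 log2 units, from 7.11 for Col15a1 upward. The next chains were Col1a2 at 6.78 and Col5a2 at 6.77 log2 CPM per kb. This order depends on the length used: with the longest coding transcript, chosen after the values were seen, Col3a1 came first at 8.33, followed by Col6a2 at 8.06 and Col1a2 at 8.00 log2 CPM per kb.

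Summed over all chains, collagen took nearly the same share of the listed CPM in every group. The share was 1.96 to 2.11% in FIPs labelled transgenic, 2.02 to 2.31% in control FIPs, 2.11 to 2.43% in APCs labelled transgenic and 2.13 to 2.21% in control APCs. FIPs labelled transgenic and the matching APCs differed in mean summed CPM by a log2 ratio of -0.13, control FIPs and APCs by -0.04, and the genotypes by -0.04 in FIPs and 0.04 in APCs. The groups overlapped in each of these 4 comparisons.

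The make-up of that sum separated the 2 populations. FACITs supplied 7.97 to 9.12% of the summed collagen CPM in FIPs labelled transgenic and 7.84 to 8.97% in control FIPs. In the APCs they supplied 2.68 to 2.94% with the transgenic label and 2.49 to 3.30% in controls. Type VI chains supplied 26.7 to 28.3% in FIPs labelled transgenic and 26.8 to 28.0% in control FIPs, against 30.7 to 32.1% in APCs labelled transgenic and 31.3 to 31.9% in control APCs. Type IV chains supplied 15.5 to 16.6% in FIPs labelled transgenic and 15.7 to 16.2% in control FIPs, against 18.7 to 20.1% in APCs labelled transgenic and 17.7 to 20.0% in control APCs. The FIP and APC ranges did not overlap for any of these 3 classes. Nor did they for the fibrillar, short-chain network, multiplexin, anchoring fibril and transmembrane classes, and only the share of the chains in no class overlapped. Short-chain network chains supplied 1.22 to 1.62% in FIPs labelled transgenic and 1.16 to 1.46% in control FIPs. In APCs these supplied 0.208 to 0.328% with the transgenic label and 0.241 to 0.377% in controls. Fibrillar chains were the largest class everywhere, at 40.1 to 41.0% in FIPs labelled transgenic, 40.7 to 41.2% in control FIPs, 38.5 to 39.6% in APCs labelled transgenic and 38.3 to 40% in control APCs. Shares of one sum move against each other, so a larger FACIT share lowers the rest.

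**Figure D2:**
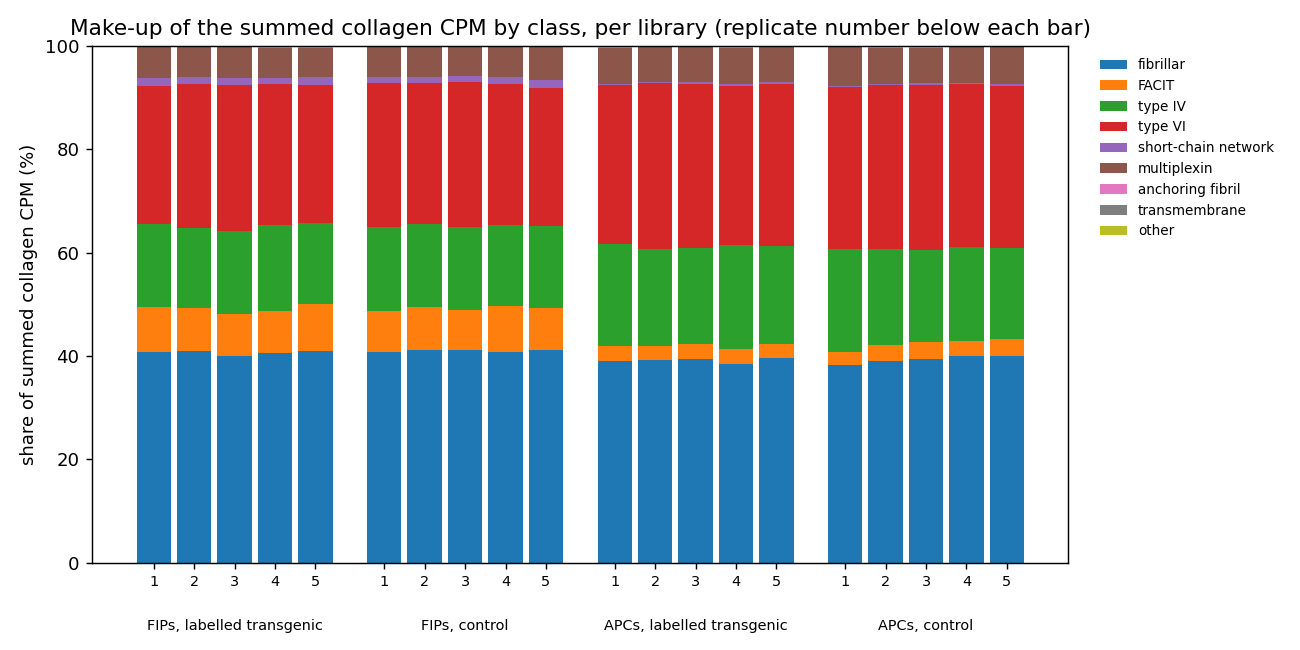
Share of the summed collagen CPM, in percent, by class in each of the 20 libraries. Each bar is 1 library with its replicate number below it. The FACIT segment is 7.84 to 9.12% in the 10 FIP libraries and 2.49 to 3.30% in the 10 APC libraries, while the fibrillar segment is near 40% throughout.

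The first question the design poses is how FIPs and APCs of the same mice differ. In mice labelled transgenic 25 of the 37 chains passed the test, 8 higher and 17 lower in FIPs, which is 67.6% of the chains against 41.7% of all 17435 genes tested (22.7% higher and 19.0% lower). In control mice 23 chains passed, 7 higher and 16 lower in FIPs, which is 62.2% of the chains against 47.5% of all genes (19.6% higher and 27.9% lower). The median difference over the chains was -0.10 log2 units in mice labelled transgenic and -0.08 in controls, and over all genes -0.01 in mice labelled transgenic and -0.06 in controls. FIP and APC libraries did not overlap for 25 chains in mice labelled transgenic, against 29.0% of all genes, and for 17 chains in controls, against 31.4% of all genes. In both genotypes 22 chains passed, all in the same direction, which is 88.0% of those called in mice labelled transgenic and 95.7% of those called in controls. The matching shares over all genes were not computed, so this overlap is not read as a trait of the chains. Col5a1, Col6a1 and Col8a2 passed with the transgenic label alone and Col26a1 in controls alone, and none of these 4 passed the test of the difference between the genotypes. Col26a1 met the filter on low values only because of the control APCs, so its call among the lower chains of controls carries little weight.

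**Figure D3:**
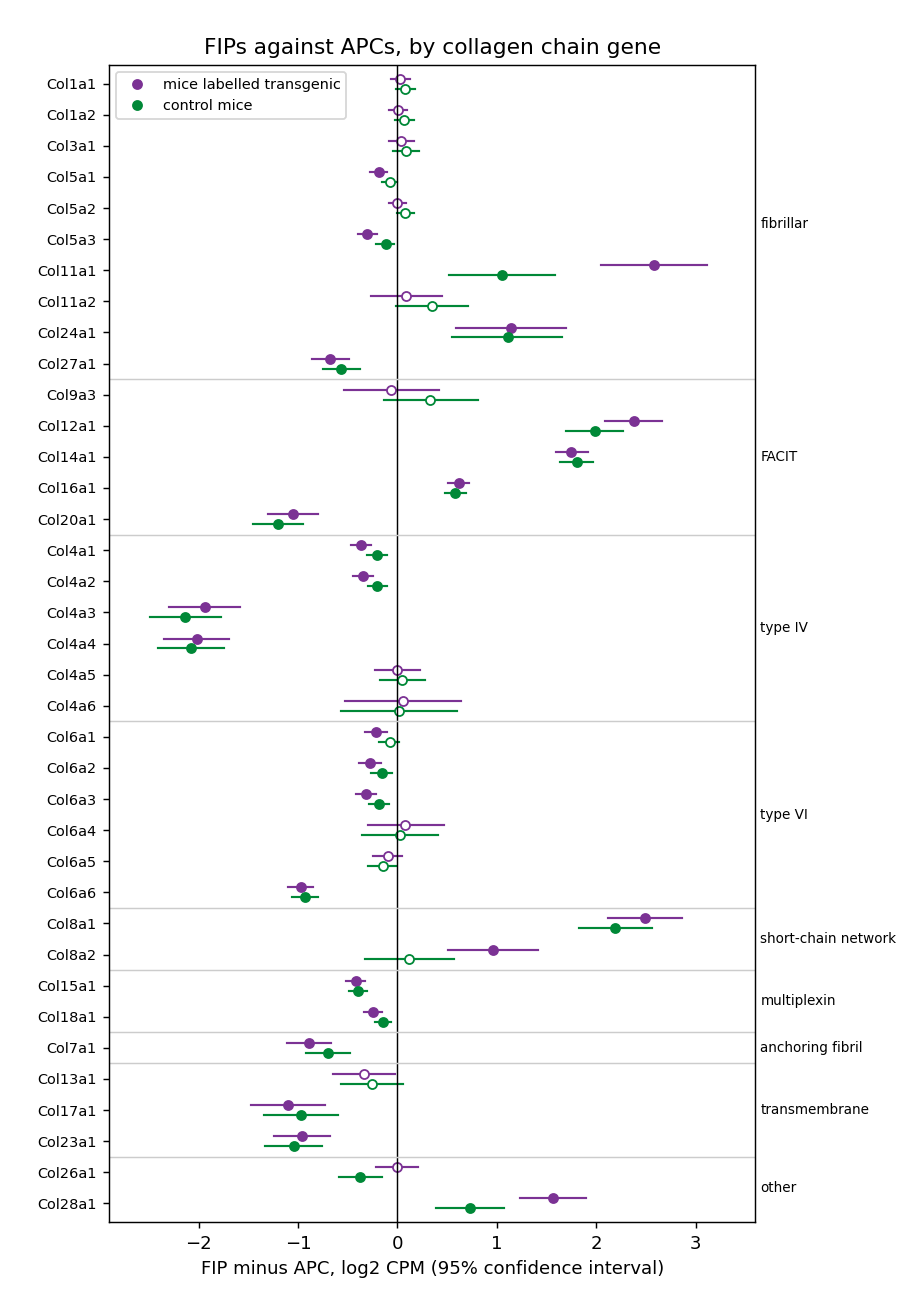
Difference between FIPs and APCs in log2 CPM for each tested chain, with its 95% confidence interval, in mice labelled transgenic (purple) and control mice (green). Filled circles passed the adjusted p threshold of 0.05 and open circles did not. The largest positive differences are those of Col11a1, Col8a1, Col12a1 and Col14a1, and the largest negative ones those of Col4a3 and Col4a4.

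These counts depend in part on how libraries are scaled. Among all genes, the share of calls that were higher in FIPs was 54.5% in mice labelled transgenic, and 43.8% with libraries centred on their medians. In controls it was 41.3%, and 52.8% with centring. Among the chains, the higher share in controls was 30.4%, 44.4% with centring and 48.0% with quantile normalization, and in mice labelled transgenic 32.0%, 30.8% and 40% under the same 3 scalings. Under all 3 scalings 23 chains passed in mice labelled transgenic, 8 higher and 15 lower, and 16 in controls, 7 higher and 9 lower. The matching shares over all genes were not computed. The chains that lost their call under a scaling differed by 0.38 log2 units or less.

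Markers of other cell types moved with the same contrast in controls. All 12 mural markers were lower in control FIPs, with a summed level of 462.4 to 500.7 CPM in control FIPs and 846.0 to 1178.7 CPM in control APCs. With the transgenic label 7 of 12 were lower, at 477.7 to 607.8 CPM in FIPs and 796.0 to 930.1 CPM in APCs. Of the 12 endothelial markers, 11 were lower and 1 was higher in control FIPs (614.0 to 789.5 CPM, against 692.9 to 912.0 CPM in control APCs), and none was lower and 1 higher with the transgenic label (703.4 to 897.4 CPM in FIPs, against 581.5 to 792.3 CPM in APCs). Mesothelial markers were lower for 10 of 12 in control FIPs (224.8 to 317.1 CPM, against 287.4 to 329.6 CPM in control APCs). With the label, 2 of these were lower and 1 higher (262.4 to 293.4 CPM in FIPs, against 212.5 to 297.3 CPM in APCs). Adipocyte markers were lower for 8 of 8 in control FIPs (1137.0 to 1335.9 CPM, against 1685.1 to 2431.4 CPM in control APCs) and for 3 of 8 with the label (779.1 to 1346.2 CPM in FIPs, against 1232.8 to 1985.0 CPM in APCs). Erythroid markers were lower for 4 of 6 with the label and 6 of 6 in controls, macrophage markers for 1 of 12 in each genotype, and preadipocyte markers for 5 of 6 with the label and for 4 of 6 in controls, with 1 higher in controls. No marker of these lists was at 0 in every library, and their part in the collagen differences was not tested. In bulk samples, fewer cells of a type and less RNA per cell cannot be told apart.

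Col8a1 was the chain with the highest difference in control mice. It encodes a short chain of the hexagonal network known from the basement membrane under the endothelium of the cornea and from vessel walls. It measured 8.24, 8.08, 8.11, 7.93 and 8.15 log2 CPM in FIPs labelled transgenic and 7.90, 7.88, 8.01, 8.01 and 8.16 in control FIPs. In APCs, Col8a1 measured 5.06, 5.35, 5.96, 5.54 and 6.15 with the transgenic label and 5.22, 5.75, 6.17, 5.64 and 6.21 in controls. Every FIP library lay above every APC library, and the APC libraries were the more scattered. The difference was 2.49 ± 0.18 in mice labelled transgenic (adjusted p = 3.04e-10) and 2.19 ± 0.18 in controls (adjusted p = 2.52e-09), that is 5.62-fold with the label and 4.58-fold in controls. Its partner chain Col8a2 was far lower in level. Per kilobase the mean levels were 3.91 log2 CPM for Col8a1 and 1.21 for Col8a2. Col8a2 measured 3.92, 3.84, 3.82, 3.68 and 4.73 log2 CPM in FIPs labelled transgenic and 3.38, 3.07, 3.27, 3.51 and 3.28 in control FIPs. In APCs, Col8a2 measured 3.48, 2.71, 2.63, 3.29 and 3.06 with the transgenic label and 3.79, 3.50, 3.07, 2.67 and 2.87 in controls. With the transgenic label all FIP libraries lay above all APC libraries, whereas in controls the groups overlapped. The difference was 0.96 ± 0.22 in mice labelled transgenic (adjusted p = 0.00104) and 0.12 ± 0.22 in controls (adjusted p = 0.673), and the difference between these did not pass (adjusted p = 0.262).

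Of the FACITs, Col12a1, Col14a1 and Col16a1 were higher in FIPs and Col20a1 was lower, in both genotypes. Col12a1, a chain of dense and load-bearing connective tissue, measured 8.07, 8.06, 8.08, 8.01 and 8.36 log2 CPM in FIPs labelled transgenic and 7.67, 7.96, 7.81, 8.29 and 7.77 in control FIPs. In APCs, Col12a1 measured 5.59, 5.98, 6.03, 5.34 and 5.76 with the transgenic label and 5.52, 5.81, 6.13, 5.88 and 6.23 in controls. The populations were far apart, with the lowest FIP library well above the highest APC library. The difference was 2.38 ± 0.14 in mice labelled transgenic (adjusted p = 1.24e-11) and 1.99 ± 0.14 in controls (adjusted p = 2.52e-10). Col14a1, which regulates the growth of fibrils in width, measured 10.04, 10.12, 10.03, 10.07 and 10.06 log2 CPM in FIPs labelled transgenic and 10.11, 10.13, 10.23, 10.13 and 10.04 in control FIPs. In APCs, Col14a1 measured 8.36, 8.23, 8.26, 8.27 and 8.43 with the transgenic label and 7.90, 8.46, 8.49, 8.32 and 8.44 in controls. The FIP libraries lay close together, and replicate 1 of the control APCs stood below the other APC libraries. The difference was 1.75 ± 0.08 in mice labelled transgenic (adjusted p = 1.71e-13) and 1.81 ± 0.08 in controls (adjusted p = 1.25e-13). Among the FACITs Col14a1 had the highest level per kilobase, at 6.40 log2 CPM per kb over all libraries, against 5.43 for Col16a1, 2.99 for Col12a1 and 1.48 for Col20a1.

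Col16a1, a FACIT of skin and smooth muscle, measured 8.45, 8.45, 8.41, 8.47 and 8.57 log2 CPM in FIPs labelled transgenic and 8.45, 8.52, 8.52, 8.48 and 8.53 in control FIPs. In APCs, Col16a1 measured 7.70, 7.86, 8.00, 7.90 and 7.81 with the transgenic label and 7.78, 7.92, 8.03, 7.85 and 8.01 in controls. There was no overlap in either genotype. The difference was 0.62 ± 0.05 in mice labelled transgenic (adjusted p = 3.47e-09) and 0.58 ± 0.05 in controls (adjusted p = 9.53e-09). Col20a1, a little-studied FACIT, measured 3.46, 3.48, 3.20, 3.46 and 3.45 log2 CPM in FIPs labelled transgenic and 3.21, 3.09, 3.08, 3.42 and 2.93 in control FIPs. In APCs, Col20a1 measured 4.28, 4.48, 4.29, 4.80 and 4.44 with the transgenic label and 4.58, 4.47, 4.28, 4.44 and 3.95 in controls. Its FIP values were all below its APC values. The difference was -1.05 ± 0.12 in mice labelled transgenic (adjusted p = 4.54e-07) and -1.20 ± 0.12 in controls (adjusted p = 7.76e-08). The annotation puts 79 bp of its exons (1.54%) under a second gene on the same strand, so some reads could be assigned to either. Col9a3, a chain known from cartilage, stayed near the floor, with group means of 0.67 log2 CPM in FIPs labelled transgenic, 0.81 in control FIPs, 0.73 in APCs labelled transgenic and 0.48 in control APCs, and did not pass in either genotype.

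The chains of types I and III, the bulk fibrillar collagens, did not pass between the populations. Col1a1, the α1 chain of type I collagen, measured 10.48, 10.55, 10.50, 10.57 and 10.53 log2 CPM in FIPs labelled transgenic and 10.56, 10.58, 10.69, 10.49 and 10.52 in control FIPs. In APCs, Col1a1 measured 10.44, 10.47, 10.52, 10.40 and 10.65 with the transgenic label and 10.40, 10.48, 10.54, 10.47 and 10.54 in controls. Col1a2, the α2 chain of the same heterotrimer, measured 10.37, 10.49, 10.40, 10.43 and 10.37 log2 CPM in FIPs labelled transgenic and 10.47, 10.46, 10.60, 10.40 and 10.41 in control FIPs. In APCs, Col1a2 measured 10.37, 10.40, 10.41, 10.29 and 10.56 with the transgenic label and 10.38, 10.40, 10.38, 10.40 and 10.41 in controls. The groups overlapped for both genes. The Col1a1 difference was 0.03 ± 0.05 with the transgenic label (95% interval -0.07 to 0.13) and 0.08 ± 0.05 in controls (-0.01 to 0.18), and did not pass (adjusted p = 0.638 with the label and 0.153 in controls). Col1a2 did not pass either (adjusted p = 0.93 with the label and 0.185 in controls). Both chains passed as higher in FIPs under quantile normalization, Col1a1 by 0.15 with the label and 0.21 in controls and Col1a2 by 0.14 with the label and 0.17 in controls. Within a library the log2 difference of Col1a1 over Col1a2 averaged 0.11 ± 0.04 in FIPs labelled transgenic, 0.10 ± 0.01 in control FIPs, 0.09 ± 0.02 in APCs labelled transgenic and 0.09 ± 0.05 in control APCs (SD, n = 5 each).

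Col3a1, the homotrimeric collagen of extensible tissue, measured 10.73, 10.87, 10.85, 10.94 and 10.77 log2 CPM in FIPs labelled transgenic and 10.82, 10.83, 11.06, 10.75 and 10.79 in control FIPs. In APCs, Col3a1 measured 10.75, 10.84, 10.82, 10.63 and 10.93 with the transgenic label and 10.64, 10.78, 10.73, 10.89 and 10.77 in controls. Replicate 3 of the control FIPs was the highest of all 20 libraries. The difference was 0.04 ± 0.06 in mice labelled transgenic (adjusted p = 0.664) and 0.09 ± 0.06 in controls (adjusted p = 0.262), with overlap in both.

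Type V chains start fibrils and set their width, and their genes did not move together. Col5a1 measured 10.40, 10.48, 10.44, 10.45 and 10.37 log2 CPM in FIPs labelled transgenic and 10.48, 10.49, 10.58, 10.43 and 10.44 in control FIPs. In APCs, Col5a1 measured 10.55, 10.62, 10.65, 10.54 and 10.74 with the transgenic label and 10.50, 10.58, 10.54, 10.60 and 10.60 in controls. With the transgenic label the FIP libraries were all below the APC libraries, and in controls the groups overlapped. The difference was -0.19 ± 0.04 in mice labelled transgenic (adjusted p = 0.000641) and -0.08 ± 0.04 in controls (adjusted p = 0.113). With the label Col5a1 lost its call under quantile normalization, at -0.07 (adjusted p = 0.0665). Col5a2, its usual partner, measured 9.99, 10.07, 10.06, 10.07 and 9.99 log2 CPM in FIPs labelled transgenic and 10.07, 10.06, 10.20, 10.01 and 10.04 in control FIPs. In APCs, Col5a2 measured 9.98, 10.05, 10.07, 9.93 and 10.15 with the transgenic label and 9.95, 10.03, 9.99, 10.01 and 9.99 in controls. Those groups overlapped in both genotypes, in controls through replicate 4 of the FIPs alone. The Col5a2 difference was 0.00 ± 0.04 in mice labelled transgenic (adjusted p = 1.0) and 0.08 ± 0.04 in controls (adjusted p = 0.108). The log2 difference of Col5a1 over Col5a2 within a library was 0.38 to 0.41 in FIPs labelled transgenic and 0.38 to 0.43 in control FIPs, against 0.57 to 0.61 in APCs labelled transgenic and 0.55 to 0.61 in control APCs. The ratio did not overlap between the populations, and a shift of a whole library leaves it as it is. Under quantile normalization, which moves genes of different levels by different amounts, it did overlap, at 0.33 to 0.51 in FIPs labelled transgenic and 0.33 to 0.45 in control FIPs, against 0.38 to 0.63 in APCs labelled transgenic and 0.46 to 0.67 in control APCs.

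Col5a3, the third type V chain, measured 10.04, 10.18, 10.20, 10.13 and 10.01 log2 CPM in FIPs labelled transgenic and 10.24, 10.22, 10.34, 10.18 and 10.18 in control FIPs. In APCs, Col5a3 measured 10.34, 10.39, 10.46, 10.35 and 10.56 with the transgenic label and 10.32, 10.38, 10.35, 10.39 and 10.34 in controls. With the label the FIP libraries were all lower, and in controls the groups overlapped through replicate 3 of the FIPs. The difference was -0.31 ± 0.05 in mice labelled transgenic (adjusted p = 1.47e-05) and -0.12 ± 0.05 in controls (adjusted p = 0.0328), where it turned to 0.01 under quantile normalization and lost its call without replicate 1, 2, 4 or 5 of the control FIPs or replicate 2, 3 or 4 of the control APCs, at -0.13 to -0.11. With centring the call in controls was lost too, at -0.06 (adjusted p = 0.571). Col27a1, a fibrillar chain of growing cartilage, was lower in FIPs by -0.68 ± 0.09 in mice labelled transgenic (adjusted p = 2.48e-06) and by -0.57 ± 0.09 in controls (adjusted p = 2.62e-05), with no overlap in either. Col24a1, known from developing bone, averaged 1.24 log2 CPM in FIPs labelled transgenic, 1.58 in control FIPs, 0.10 in APCs labelled transgenic and 0.47 in control APCs, and 6 of the 10 APC libraries were listed at 0. It passed as higher in FIPs in mice labelled transgenic (adjusted p = 0.00151) and in controls (adjusted p = 0.00189). Col11a2 did not pass, with group means of 1.86 to 2.25 log2 CPM.

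Col11a1 had the largest difference of any chain in mice labelled transgenic. It nucleates thin fibrils in cartilage and is known as a gene of activated fibroblasts. It measured 2.79, 1.82, 2.22, 3.01 and 3.42 log2 CPM in FIPs labelled transgenic and 0.90, 1.77, 0.24, 1.13 and 1.22 in control FIPs. In APCs, Col11a1 was listed at 0 in 8 of 10 libraries, and at 0.38 log2 CPM in replicate 1 with the transgenic label and 0.03 in replicate 4 of the controls. All FIP libraries were above 0 and none overlapped the APCs in mice labelled transgenic or in controls. The fitted difference was 2.58 ± 0.25 with the label (adjusted p = 4.84e-08) and 1.05 ± 0.25 in controls (adjusted p = 0.00208), and no fold is given because the APCs were at the floor of the table.

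Type IV chains assemble as α1α1α2, α3α4α5 or α5α5α6 trimers, and their genes lie as 3 pairs that share a start region and are read in opposite directions. Col4a1 and Col4a2 lie on chromosome 8 (GRCm38; 11198423 to 11312826, minus strand, and 11312805 to 11449287, plus strand) and overlap there by 22 bp, where reads could be assigned to either gene. Col4a4 and Col4a3 lie on chromosome 1 (82448423 to 82586849, minus strand, and 82586921 to 82722059, plus strand) with 71 bp between them. Col4a6 and Col4a5 lie on the X chromosome, 1308 bp apart. Both genes of the pairs on chromosomes 8 and 1 kept step in these libraries, but so did chains on different chromosomes. The log2 difference of Col5a1 over Col5a2 had an SD of 0.02 to 0.03 within groups. That SD was 0.01 to 0.03 for Col4a1 over Col4a2 and 0.09 to 0.13 for Col4a3 over Col4a4. For Col4a5 over Col4a6 it was 0.12 to 0.47, so this pair kept step less closely. The part of the start regions was not tested. The start regions that the pairs on chromosomes 8 and 1 share are shown, from RefSeq (GRCm38.p6), 5′ to 3′ on the minus strand. The Col4a1 window is chr8:11312777-11313076 and the Col4a4 window is chr1:82586800-82587099, and capitals mark the stretch from one gene's annotated start to the other's.

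Col4a1: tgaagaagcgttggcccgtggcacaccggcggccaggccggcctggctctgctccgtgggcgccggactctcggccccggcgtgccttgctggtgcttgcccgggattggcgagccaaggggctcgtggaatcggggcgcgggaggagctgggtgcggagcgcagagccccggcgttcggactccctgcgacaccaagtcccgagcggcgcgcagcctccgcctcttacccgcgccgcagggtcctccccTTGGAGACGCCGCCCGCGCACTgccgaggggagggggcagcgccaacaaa
Col4a4: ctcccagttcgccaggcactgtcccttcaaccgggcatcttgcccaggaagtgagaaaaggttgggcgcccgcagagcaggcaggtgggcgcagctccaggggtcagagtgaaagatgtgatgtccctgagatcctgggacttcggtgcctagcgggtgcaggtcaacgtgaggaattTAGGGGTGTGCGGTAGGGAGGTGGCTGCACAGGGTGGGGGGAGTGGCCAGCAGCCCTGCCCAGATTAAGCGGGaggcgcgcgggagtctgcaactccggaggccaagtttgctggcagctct

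The windows run from 250 bases before to 50 after the start of the named gene. The capitals hold 22 bases in the Col4a1 window, where the transcripts overlap, and 73 bases in the Col4a4 window, where they diverge. The Col4a1 window was 74.0% G and C with 37 CG pairs, and the Col4a4 window 63.3% with 14, against medians of 52.7% and 7 over all 32851 windows. CCAAT was found at base 106 and GGGCGG at base 260 of the Col4a1 window, and TATAAA nowhere in it, on either strand. None of the 3 motifs was in the Col4a4 window. Over all windows 37.4% held CCAAT, 35.7% GGGCGG and 13.6% TATAAA. Windows were found for 35 of the 44 chains, and 13 of these chains had CCAAT, 22 GGGCGG and 5 TATAAA.

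Col4a3, a chain of the specialised basement membranes of kidney, lung and eye, had the largest negative difference in controls. It measured 5.13, 4.62, 5.26, 5.38 and 4.95 log2 CPM in FIPs labelled transgenic and 4.77, 4.43, 4.65, 4.35 and 3.93 in control FIPs. In APCs, Col4a3 measured 7.06, 6.86, 6.88, 7.36 and 6.88 with the transgenic label and 6.91, 6.68, 6.35, 6.82 and 6.05 in controls. Every FIP library was below every APC library. The difference was -1.94 ± 0.17 in mice labelled transgenic (adjusted p = 9.3e-09) and -2.14 ± 0.17 in controls (adjusted p = 2.51e-09). Col4a4, its head-to-head partner and partner in the α3α4α5 trimer, measured 6.07, 5.52, 6.10, 6.36 and 5.69 log2 CPM in FIPs labelled transgenic and 5.73, 5.55, 5.57, 5.49 and 4.94 in control FIPs. In APCs, Col4a4 measured 8.01, 7.89, 7.85, 8.17 and 7.91 with the transgenic label and 7.84, 7.75, 7.43, 7.59 and 7.07 in controls. The libraries ranked much as they did for Col4a3, with replicate 5 lowest in both control groups. The difference was -2.02 ± 0.16 in mice labelled transgenic (adjusted p = 1.58e-09) and -2.08 ± 0.16 in controls (adjusted p = 1.11e-09). Within a library the log2 difference of Col4a3 over Col4a4 averaged -0.88 ± 0.09 in FIPs labelled transgenic, -1.03 ± 0.10 in control FIPs, -0.96 ± 0.09 in APCs labelled transgenic and -0.97 ± 0.13 in control APCs (SD, n = 5 each). The ratio of the pair thus changed far less than the level of either gene. A noncoding transcript on the other strand covers 563 bp (5.65%) of the Col4a3 exons, and reads from it could be counted here if strand was not used.

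Col4a5, the third chain of that trimer, was not called. It averaged 8.78 log2 CPM in FIPs labelled transgenic, 8.74 in control FIPs, 8.78 in APCs labelled transgenic and 8.70 in control APCs (adjusted p = 0.992 between populations with the label and 0.748 in controls). Col4a6 was the most scattered chain of the type. It measured 6.30, 6.05, 6.29, 6.60 and 6.24 log2 CPM in FIPs labelled transgenic and 6.70, 6.48, 6.21, 5.95 and 5.89 in control FIPs. In APCs, Col4a6 measured 6.65, 5.86, 5.94, 6.78 and 5.97 with the transgenic label and 7.40, 6.71, 5.88, 5.72 and 5.44 in controls. The control APCs ran over nearly 2 log2 units, with replicate 1 highest and replicate 5 lowest, and Col4a5 had the same highest and lowest libraries. The Col4a6 difference was 0.06 ± 0.28 with the label and 0.02 ± 0.28 in controls (95% interval -0.57 to 0.60), and neither passed (adjusted p = 0.894 with the label and 0.969 in controls).

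Col4a1 and Col4a2, the chains of the ubiquitous basement membrane trimer, were lower in FIPs by a small amount. Col4a1 measured 10.44, 10.53, 10.54, 10.56 and 10.40 log2 CPM in FIPs labelled transgenic and 10.55, 10.52, 10.72, 10.48 and 10.53 in control FIPs. In APCs, Col4a1 measured 10.85, 10.86, 10.86, 10.75 and 11 with the transgenic label and 10.75, 10.76, 10.74, 10.80 and 10.78 in controls. In each genotype all FIP libraries were below all APC libraries. Col4a2 measured 10.17, 10.25, 10.29, 10.31 and 10.15 log2 CPM in FIPs labelled transgenic and 10.29, 10.28, 10.45, 10.23 and 10.30 in control FIPs. In APCs, Col4a2 measured 10.52, 10.57, 10.57, 10.51 and 10.74 with the transgenic label and 10.48, 10.51, 10.50, 10.53 and 10.56 in controls. It showed the same separation. The Col4a1 difference was -0.37 ± 0.05 in mice labelled transgenic (adjusted p = 2.36e-06) and -0.21 ± 0.05 in controls (adjusted p = 0.00151). For Col4a2 the difference was -0.35 ± 0.05 with the label (adjusted p = 4.05e-06) and -0.21 ± 0.05 in controls (adjusted p = 0.00128). In controls both lost their call with libraries centred on their medians, at -0.14 each. The log2 difference of Col4a1 over Col4a2 within a library was 0.25 to 0.28 in FIPs labelled transgenic, 0.23 to 0.27 in control FIPs, 0.24 to 0.33 in APCs labelled transgenic and 0.22 to 0.27 in control APCs, a range narrower than the spread of either gene.

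In the type VI class 4 of 6 chains were lower in FIPs of mice labelled transgenic and 3 of 6 in controls. Col6a1, Col6a2 and Col6a3 encode the chains of the classical heterotrimer. Col6a1 measured 9.83, 9.93, 9.95, 9.90 and 9.77 log2 CPM in FIPs labelled transgenic and 9.96, 9.95, 10.12, 9.88 and 9.86 in control FIPs. In APCs, Col6a1 measured 10.02, 10.12, 10.15, 9.97 and 10.23 with the transgenic label and 9.98, 10.04, 10.03, 10.08 and 10.06 in controls. Col6a2 measured 10.06, 10.20, 10.22, 10.16 and 10.03 log2 CPM in FIPs labelled transgenic and 10.21, 10.20, 10.33, 10.14 and 10.11 in control FIPs. The corresponding APC values of Col6a2 were 10.30, 10.45, 10.50, 10.30 and 10.52 with the transgenic label and 10.24, 10.38, 10.39, 10.41 and 10.37 in controls. For both genes the FIP libraries were all below the APC libraries with the transgenic label, and the control groups overlapped through replicate 3 of the FIPs. Col6a3 measured 10.56, 10.69, 10.70, 10.71 and 10.58 log2 CPM in FIPs labelled transgenic and 10.74, 10.69, 10.87, 10.66 and 10.72 in control FIPs. In APCs, Col6a3 measured 10.92, 10.97, 10.97, 10.86 and 11.11 with the transgenic label and 10.84, 10.93, 10.93, 10.96 and 10.97 in controls. It had the same pattern of overlap. In mice labelled transgenic the differences were -0.22 ± 0.05 for Col6a1, -0.28 ± 0.05 for Col6a2 and -0.32 ± 0.05 for Col6a3 (adjusted p = 0.00159, 0.000245 and 2.02e-05). In controls they were -0.08 ± 0.05, -0.16 ± 0.05 and -0.19 ± 0.05 (adjusted p = 0.195, 0.0191 and 0.00334). In controls Col6a2 lost its call with centring, at -0.10 (adjusted p = 0.368), and under quantile normalization, at -0.05 (adjusted p = 0.399). It was also lost without replicate 5 of the control FIPs, at -0.14 (adjusted p = 0.0542). With the transgenic label Col6a2 lost its call under quantile normalization, at -0.09 (adjusted p = 0.106). Col6a3 lost its call in controls with centring, at -0.13 (adjusted p = 0.242). Without replicate 3 of the control FIPs, Col6a1 passed in controls as well, at -0.13 (adjusted p = 0.0434).

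Col6a6, one of 3 chains that can take the place of α3, had the largest difference of the type. It measured 8.87, 9.06, 9.15, 9.15 and 8.90 log2 CPM in FIPs labelled transgenic and 9.10, 8.93, 9.07, 8.95 and 8.91 in control FIPs. In APCs, Col6a6 measured 9.89, 10.02, 10.01, 9.99 and 10.09 with the transgenic label and 10.07, 9.97, 9.86, 9.92 and 9.79 in controls. The populations were clearly apart. The difference was -0.97 ± 0.06 in mice labelled transgenic (adjusted p = 4.58e-11) and -0.93 ± 0.06 in controls (adjusted p = 1.05e-10). Its tandem neighbours on chromosome 9, which encode the other such chains, did not pass. Col6a5 averaged 10.43 log2 CPM in FIPs labelled transgenic, 10.44 in control FIPs, 10.53 in APCs labelled transgenic and 10.59 in control APCs (adjusted p = 0.275 between populations with the label and 0.0796 in controls). Col6a4 averaged 3.39 log2 CPM in FIPs labelled transgenic, 3.08 in control FIPs, 3.31 in APCs labelled transgenic and 3.05 in control APCs. Per kilobase the 3 neighbours therefore differed widely, at 7.26 log2 CPM for Col6a5, 6.29 for Col6a6 and 0.12 for Col6a4. The log2 difference of Col6a6 over Col6a3 was -1.69 to -1.55 in FIPs labelled transgenic and -1.81 to -1.64 in control FIPs, against -1.03 to -0.87 in APCs labelled transgenic and -1.18 to -0.77 in control APCs.

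Both multiplexins, which sit at basement membranes, were lower in FIPs. Col15a1 measured 9.50, 9.54, 9.62, 9.64 and 9.50 log2 CPM in FIPs labelled transgenic and 9.57, 9.51, 9.69, 9.49 and 9.61 in control FIPs. In APCs, Col15a1 measured 9.97, 9.96, 9.98, 9.89 and 10.12 with the transgenic label and 10.01, 9.99, 9.94, 9.98 and 9.95 in controls. No library of one population reached the other. The difference was -0.42 ± 0.04 in mice labelled transgenic (adjusted p = 1.01e-07) and -0.40 ± 0.04 in controls (adjusted p = 2.65e-07). Col18a1, the source of endostatin, measured 8.78, 8.84, 8.82, 8.79 and 8.61 log2 CPM in FIPs labelled transgenic and 8.87, 8.88, 8.91, 8.76 and 8.97 in control FIPs. In APCs, Col18a1 measured 8.95, 9.0, 9.07, 9.05 and 9.03 with the transgenic label and 9.07, 9.02, 8.97, 9.02 and 9.04 in controls. The control groups met at 8.97 log2 CPM, while with the label there was no overlap. The difference was -0.25 ± 0.04 in mice labelled transgenic (adjusted p = 5.59e-05) and -0.15 ± 0.04 in controls (adjusted p = 0.0076), the last of which was lost with centring, at -0.08.

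The lower-level chains of epithelial anchorage and the cell surface were also lower in FIPs. Col7a1, the chain of anchoring fibrils, differed by -0.89 ± 0.11 in mice labelled transgenic (adjusted p = 6.95e-07) and -0.70 ± 0.11 in controls (adjusted p = 1.94e-05), with no overlap. Col17a1, a transmembrane chain of hemidesmosomes, measured 1.33, 1.66, 1.43, 1.56 and 1.5 log2 CPM in FIPs labelled transgenic and 1.80, 1.83, 1.05, 1.28 and 1.37 in control FIPs. In APCs, Col17a1 measured 2.38, 2.65, 2.37, 2.77 and 2.83 with the transgenic label and 2.93, 2.72, 2.09, 2.31 and 2.11 in controls. All FIP values were below all APC values. The difference was -1.10 ± 0.18 in mice labelled transgenic (adjusted p = 3.26e-05) and -0.97 ± 0.18 in controls (adjusted p = 0.00016). Col23a1, another transmembrane chain, measured 3.39, 3.28, 3.42, 3.51 and 3.32 log2 CPM in FIPs labelled transgenic and 3.29, 3.06, 3.56, 3.39 and 3.51 in control FIPs. In APCs, Col23a1 measured 4.51, 4.14, 4.18, 4.69 and 4.21 with the transgenic label and 4.85, 4.48, 4.29, 4.01 and 4.40 in controls. Here too the groups did not overlap. The difference was -0.96 ± 0.14 in mice labelled transgenic (adjusted p = 6.36e-06) and -1.04 ± 0.14 in controls (adjusted p = 2.46e-06). Col13a1, the third of the class, was listed at 0 in all 10 FIP libraries and averaged 0.34 log2 CPM in APCs labelled transgenic and 0.26 in control APCs, and did not pass.

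Of the chains in no class, Col28a1, known from peripheral nerve, was higher in FIPs. It measured 4.76, 4.45, 4.62, 4.80 and 4.77 log2 CPM in FIPs labelled transgenic and 3.87, 3.82, 4.23, 3.98 and 4.89 in control FIPs. In APCs, Col28a1 measured 2.91, 3.27, 3.10, 3.18 and 3.13 with the transgenic label and 3.23, 3.29, 3.48, 3.28 and 3.86 in controls. With the label the populations did not overlap, and in controls they overlapped through replicate 5 of the APCs. The difference was 1.56 ± 0.16 in mice labelled transgenic (adjusted p = 9.7e-08) and 0.73 ± 0.16 in controls (adjusted p = 0.000965). The difference between these, 0.83 ± 0.23, did not pass (adjusted p = 0.163).

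The second question is whether the transgenic label changed the chains within a population. In FIPs 1 of 37 chains passed, higher with the label, against 0.373% of all genes (0.241% higher and 0.132% lower). In APCs 1 chain passed, lower with the label, against 8.01% of all genes (2.1% higher and 5.91% lower). The groups did not overlap for 2 chains in FIPs, both higher with the label, against 2.89% of all genes (2.19% higher and 0.694% lower). In APCs 1 chain did not overlap, higher with the label, against 2.92% of all genes (1.5% higher and 1.42% lower). The median difference over the chains was -0.01 in FIPs and 0.04 in APCs, beside 0.01 in FIPs and -0.03 in APCs over all genes. Scaling moves these splits: of all genes called in APCs 26.2% were higher, and 62.6% with libraries centred on their medians, while in FIPs 64.6% were higher, and 51.9% with centring. At an unadjusted p under 0.05 there were 9 chains in FIPs (24.3% of the chains, against 10.6% of all genes) and 4 in APCs (10.8%, against 25.5% of all genes). Beside these counts, APCs labelled transgenic had lower levels than control APCs of 6 of 6 erythroid, 8 of 12 macrophage, 4 of 8 adipocyte, 3 of 12 mesothelial, 1 of 12 mural, 1 of 12 endothelial and 4 of 6 interstitial progenitor markers. Of the preadipocyte markers 1 of 6 was lower and 1 higher. None of these marker calls held when only the APC groups were fitted, where 0 of all genes passed. Without 1 library 181 to 2849 of all genes passed in APCs, against 1396 with all libraries. In FIPs no marker passed between genotypes, and the part of these markers in the chain values was not tested.

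In FIPs, Col11a1 was the chain that passed. Its values, given above, lay between 1.82 and 3.42 log2 CPM with the transgenic label and between 0.24 and 1.77 in controls, without overlap. The difference was 1.6 ± 0.25 (adjusted p = 0.00759), or 3.03-fold on the log2 CPM scale, and all 5 libraries with the label were above all 5 controls. It passed without any single library, with adjusted p between 0.00136 and 0.0381. It missed the threshold at 1.24 when 1 was added to the CPM before the logarithm (adjusted p = 0.0623), and at 1.6 when only the FIP groups were fitted (adjusted p = 0.115). The main SE pools all groups, and the APCs at the floor had SDs of 0.17 with the label and 0.01 in controls. The FIP groups had SDs of 0.64 with the label and 0.56 in controls, so the main SE and p-value are too small for their spread. The levels are close to the floor of the table, near 1 CPM in the controls. In APCs it was at or near 0 in both genotypes, and the difference between the FIP and APC effects, 1.53 ± 0.36, did not pass (adjusted p = 0.121).

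Col26a1, a chain of testis and ovary, passed in APCs. It was listed at 0 in all 10 FIP libraries and in 4 of 5 APC libraries with the transgenic label, the other being at 0.01 log2 CPM. The control APCs were at 0.26, 0, 0.61, 0.49 and 0.53 log2 CPM. The groups overlap at 0, and every value is within 1 log2 unit of the floor. It was above 0 in 5 libraries, the fewest that the filter allows. It was thus tested only because of the control APCs, the group where it is higher, and its calls are no independent support for a difference. The difference was -0.38 ± 0.10 (adjusted p = 0.0358), and it missed the threshold without replicate 2, 3, 4 or 5 of the APCs labelled transgenic or replicate 3, 4 or 5 of the control APCs (adjusted p = 0.0633 to 0.111).

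A further 4 chains are described because their genotype differences were among the largest of the class, a choice made after their values were seen. Col8a2 did not overlap in FIPs, where replicate 5 with the label was the highest library at 4.73 log2 CPM. The difference was 0.70 ± 0.22 and did not pass (adjusted p = 0.193). Col28a1 differed in FIPs by 0.52 ± 0.16 (adjusted p = 0.193), and passed without replicate 5 of the control FIPs, whose 4.89 log2 CPM was the highest of all libraries (0.70, adjusted p = 0.0295). Over all single omissions its adjusted p ran from 0.0295 to 0.374. The head-to-head pair Col4a3 and Col4a4 had higher means with the transgenic label in both populations without passing. Col4a3 differed by 0.64 ± 0.17 in FIPs (adjusted p = 0.115) and 0.45 ± 0.17 in APCs (adjusted p = 0.105). Col4a4 differed by 0.49 ± 0.16 in FIPs (adjusted p = 0.215) and 0.43 ± 0.16 in APCs (adjusted p = 0.0922), and its APC groups did not overlap. Without replicate 1 of the control APCs both passed in APCs, at 0.53 for Col4a3 (adjusted p = 0.0476) and 0.51 for Col4a4 (adjusted p = 0.0432). In that fit 2471 of all genes passed, against 1396 with all libraries. Over all single omissions the adjusted p ran from 0.0476 to 0.301 for Col4a3 and from 0.0432 to 0.269 for Col4a4. The differences went down to 0.32 for Col4a3 and 0.31 for Col4a4.

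**Figure D4:**
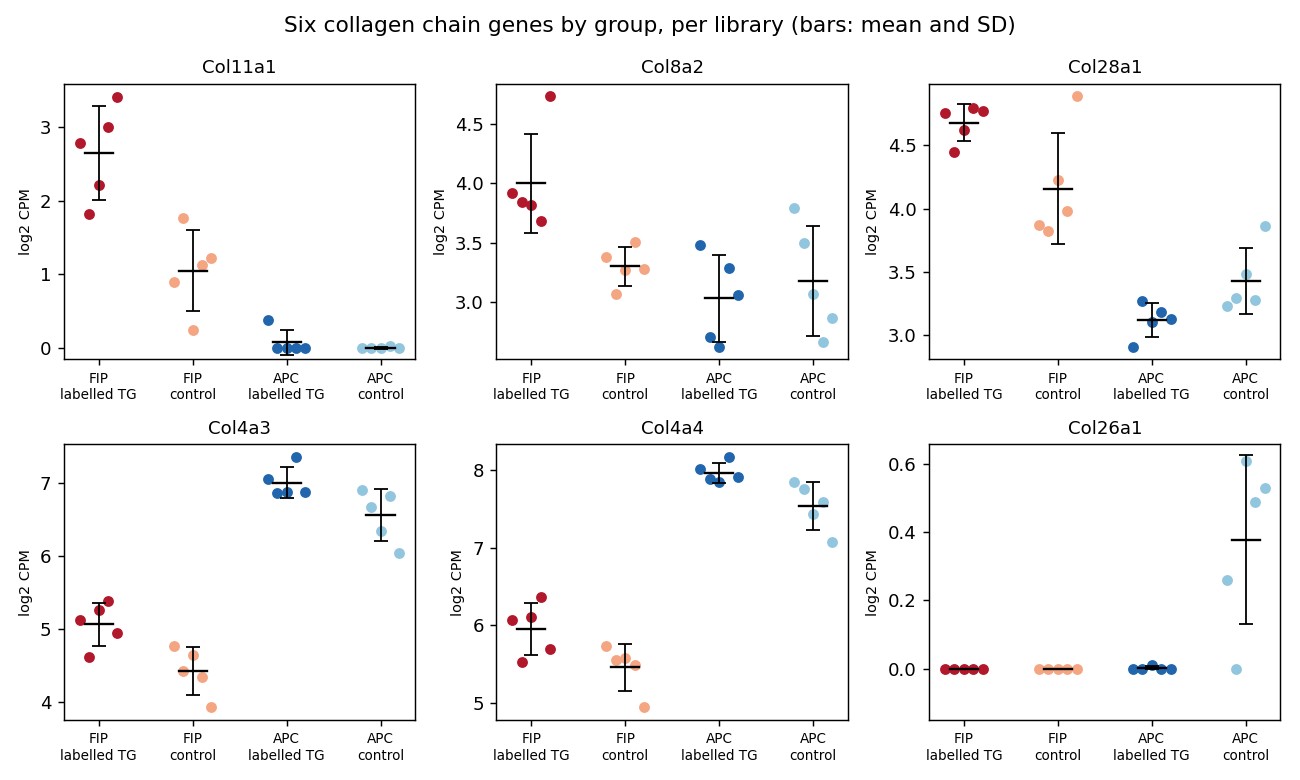
Level in log2 CPM of Col11a1, Col8a2, Col28a1, Col4a3, Col4a4 and Col26a1 in each library of the 4 groups, with the group mean and SD as bars (n = 5 each). Each panel has its own vertical axis. Col11a1 lies at 1.82 to 3.42 in FIPs labelled transgenic and 0.24 to 1.77 in control FIPs, and at or near 0 in both APC groups.

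None of the abundant chains passed between genotypes. For the 13 chains with the highest levels per kilobase, the differences ran from -0.12 to -0.01 in FIPs and from -0.06 to 0.10 in APCs. Their values moved together from library to library. Replicate 3 of the control FIPs was the highest library of its group for 13 of the 13, and replicate 5 of the APCs labelled transgenic for 12 of them. These were the shallowest libraries of their groups, at 6.76 and 6.6 megareads. Replicates 1 and 5 of the FIPs labelled transgenic, the deepest of their group at 8.38 and 8.5 megareads, had the lowest mean over the 13 chains, 10.22 log2 CPM each. In control APCs it was the other way, as the shallowest library, replicate 1 at 7.6 megareads, had the lowest mean of its group, 10.39 log2 CPM. The part of depth in these values was not tested.

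**Figure D5:**
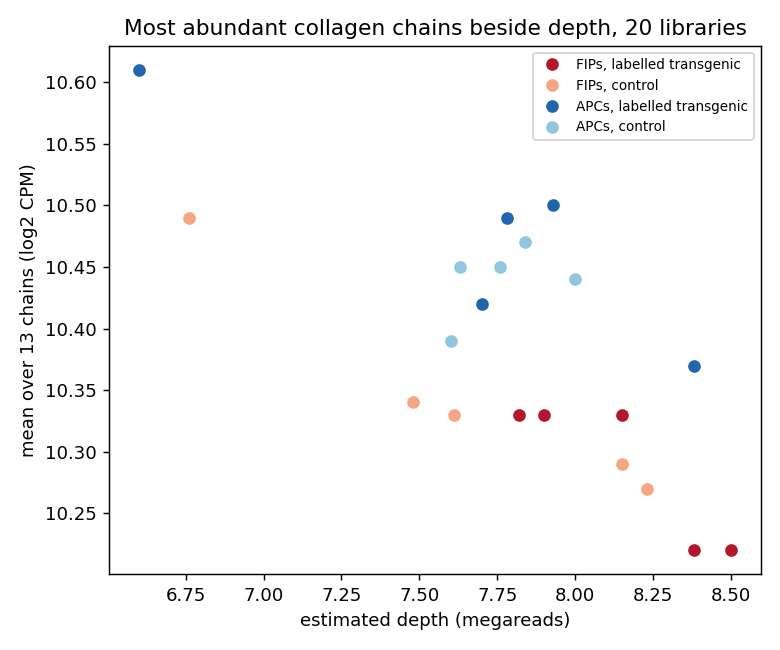
Mean log2 CPM over the 13 collagen chains with the highest levels per kilobase, plotted against estimated depth in megareads, 1 point per library. The 2 shallowest libraries, at 6.76 and 6.6 megareads, have means of 10.49 and 10.61, and the 2 deepest FIP libraries have 10.22 each.

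Replicate 1 of the control APCs stood apart in another way. Of the 33 chains above 0 in all control APC libraries, it held the highest value for 11 and the lowest for 17. The highest included Col4a3, Col4a4, Col4a5, Col4a6, Col17a1 and Col23a1, and the lowest Col1a1, Col5a1, Col6a2, Col8a1, Col12a1 and Col14a1. The summed level of 7 of the 8 marker lists was the lowest of the group in it. Mural markers summed to 846.0 CPM, against 921.0 to 1178.7 CPM in the others, erythroid markers to 805.9 CPM, against 939.7 to 1546.7 CPM, and endothelial markers to 692.9 CPM, against 814.7 to 912.0 CPM. Macrophage markers summed to 298.5 CPM, against 365.9 to 500.2 CPM, adipocyte markers to 1685.1 CPM, against 1737.3 to 2431.4 CPM, interstitial progenitor markers to 325.8 CPM, against 329.4 to 353.5 CPM, and preadipocyte markers to 1701.3 CPM, against 1754.8 to 1939.6 CPM. Mesothelial markers were instead the highest, at 329.6 CPM, against 287.4 to 317.9 CPM, and the part of all these was not tested. Without it 7 chains were higher and 16 lower in control FIPs against APCs, the same counts as with it.

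The interaction, which asks whether the label acted differently in FIPs and APCs, was passed by 0 of 37 chains and by 0 of all 17435 genes (0.0%) in limma. At an unadjusted p under 0.05 there were 7 chains (18.9%) and 2388 genes (13.7%). Without replicate 1 of the APCs labelled transgenic 1 chain passed, Col11a1 at 1.61 (adjusted p = 0.0352). In that fit 331 of all genes passed. Over all single omissions the adjusted p of Col11a1 ran from 0.0352 to 0.226.

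Genes that act on collagen chains were followed in 4 lists. Beside the counts of all 4 lists stand the shares of all genes tested between FIPs and APCs. These were 22.7% higher and 19.0% lower with the label, and 19.6% higher and 27.9% lower in controls. Between genotypes 0.373% of all genes passed in FIPs and 8.01% in APCs. The lists are small and were not tested against these shares, so their counts are not read as results about the lists. Of 23 genes that fold and modify chains in the endoplasmic reticulum, 3 were higher and 10 lower in FIPs of mice labelled transgenic and 3 higher and 6 lower in controls. P4ha3, a prolyl 4-hydroxylase subunit, averaged 3.57 log2 CPM in FIPs labelled transgenic and 2.72 in control FIPs, and was listed at 0 on average in both APC groups. It also passed between genotypes in FIPs, at 0.85 ± 0.17 (SE; adjusted p = 0.0331). That call was lost when only the FIP groups were fitted (adjusted p = 0.161) and without replicate 1 or 4 of the FIPs labelled transgenic or replicate 1, 3 or 4 of the control FIPs (adjusted p = 0.0605 to 0.0894). Plod2, the telopeptide lysyl hydroxylase, was higher in FIPs by 0.37 in mice labelled transgenic and 0.31 in controls. Colgalt2, which adds galactose to hydroxylysine, differed by -1.40 in mice labelled transgenic and -1.26 in controls. P4ha1, another prolyl 4-hydroxylase subunit, passed between genotypes in APCs, at 0.17 ± 0.04 (SE; adjusted p = 0.0244). It was lost when only the APC groups were fitted (adjusted p = 0.135) and without replicate 2, 3 or 5 of the APCs labelled transgenic or replicate 3 or 5 of the control APCs (adjusted p = 0.0519 to 0.0815).

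Of 13 genes of propeptide removal and cross-linking, 6 were higher and 3 lower in FIPs of mice labelled transgenic, and 7 higher and 2 lower in controls. Pcolce2, an enhancer of C-propeptide removal, was higher by 1.07 in mice labelled transgenic and 1.03 in controls. Adamts3, an N-propeptide protease, was higher by 1.01 with the label and 0.85 in controls, and Loxl2, a lysyl oxidase, by 0.24 with the label and 0.36 in controls. Tll2, a protease of the BMP1 family, had the largest difference of the list, at -2.53 in mice labelled transgenic and -2.02 in controls. Between genotypes it was higher in APCs labelled transgenic (6.59 log2 CPM on average, against 5.87 in control APCs; adjusted p = 0.0446). This call was lost when only the APC groups were fitted (adjusted p = 0.164), with no filter on low values (adjusted p = 0.0642) and without any 1 of 13 of the 20 libraries (adjusted p = 0.0507 to 0.128). Those were replicates 2 and 3 of the FIPs labelled transgenic, 1, 2 and 5 of the control FIPs, 2, 3, 4 and 5 of the APCs labelled transgenic and 1, 2, 3 and 5 of the control APCs.

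Of 14 receptor and uptake genes 13 were tested, with 5 higher and 3 lower in FIPs of mice labelled transgenic and 6 higher and 1 lower in controls. The collagen-binding integrin chains went opposite ways: Itga2 was higher by 1.74 in mice labelled transgenic and 1.85 in controls, and Itga1 differed by -0.85 with the label and -1.15 in controls. Itga11 was higher by 0.79 with the label. Mrc1, an endocytic receptor that is also on the macrophage marker list, was lower in APCs labelled transgenic (4.96 log2 CPM on average, against 5.79 in control APCs; adjusted p = 0.0319), where 8 of 12 macrophage markers were lower too, at a summed 194.1 to 315.7 CPM against 298.5 to 500.2 CPM in control APCs. The Mrc1 call was lost when only the APC groups were fitted (adjusted p = 0.132), as were those of the other macrophage markers. The Mrc1 call was also lost without replicate 2, 4 or 5 of the APCs labelled transgenic or replicate 3 or 5 of the control APCs (adjusted p = 0.0597 to 0.107). Of 8 collagenases 6 were tested, with 1 higher and 3 lower in FIPs of mice labelled transgenic and 1 higher and 2 lower in controls. Fap differed by -0.80 with the label and -0.65 in controls, and Mmp9 by -0.97 with the label and -1.07 in controls. Mmp8, the neutrophil collagenase, averaged 2.15 log2 CPM in FIPs labelled transgenic and 1.01 in control FIPs (adjusted p = 0.0233), and 0.0 in both APC groups. Its genotype call was lost when only the FIP groups were fitted (adjusted p = 0.148), without replicate 4 of the FIPs labelled transgenic (adjusted p = 0.0719) and without replicate 4 of the control FIPs (adjusted p = 0.0552).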

How the data were processed

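Polyadenylated RNA of 20 pooled libraries was sequenced with a NEBNext Ultra II RNA kit, per the labels' protocols. The submitters' processing notes name Trim Galore 0.4.1, HISAT2 2.0.1, featureCounts 1.4.6, DESeq2 1.6.3 and the builds GRCm38 and mm10. The sources used here give neither the annotation release nor the strand setting. The deposited values are log2 CPM to 2 decimals with a CPM of 1 or less listed as 0. No counts are given, and reads recovered from the low values were whole (within 0.0051 log2 units) for only 71.8 to 78.8% of values, so no count test was run.

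Genes above 0 in at least 5 libraries (17435) were fitted in limma 3.58.1 (R 4.3.3), a linear model with moderated variances and a mean-variance trend, with 1 mean per group and two-sided tests at a Benjamini-Hochberg adjusted p of 0.05. The 5 comparisons were FIPs against APCs within either genotype, the transgenic label against controls within either population, and the interaction. The procedure was tested on simulated data. Differences near the floor understate the change, because values of 1 CPM or less are listed as 0. The SE pools the spread of all groups, so groups at the floor make it smaller. This holds for Col11a1, P4ha3 and Mmp8, at the floor in APCs, and for Col26a1, at the floor in FIPs. Within groups libraries correlated at r = 0.9799 to 0.9945 across genes. Each library had 15972 to 17282 genes above 1 CPM.

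Members, classes, marker lists and pathway lists were chosen with earlier results of these data known. Members with per-library values are those called between genotypes, up to 6 called per direction between populations with no overlap and 2 or more log2 CPM in the higher group, and the chains of types I, III, V, VI (α1 to α3), IV (α1, α2), XV and XVIII. Of each pathway list up to 4 called genes per comparison were eligible to be named. Lengths and positions come from GENCODE M21 (GRCm38), which matched 54276 of 54304 genes. Alternatives were another pseudocount, filters, scalings, variance settings, the replicate block and leaving out each library.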

Additional observations from a re-analysis of the deposited data

Results flagged for a closer look

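A library was set apart from the other 4 of its group, by the size of its gap relative to the group's range (Dixon's 95% critical value), in 15 of 152 groups of values examined. In 8 of these groups at least 4 libraries were listed at 0, where any value above 0 is set apart by construction, and they gave 4 of the 15. The other 144 groups gave 11 (7.64%, where chance alone gives about 1 in 20). In FIPs labelled transgenic, replicate 5 was high for Col12a1 (8.36 log2 CPM, others 8.01 to 8.08) and Col8a2 (4.73, others 3.68 to 3.92) and low for Col18a1 (8.61, others 8.78 to 8.84). In the same group replicate 4 was high for Col7a1 (4.03, others 3.63 to 3.69) and Col9a3 (0.94, others 0.56 to 0.63), and replicate 3 was low for Col20a1 (3.20, others 3.45 to 3.48). Among control FIPs, replicate 3 was high for Col3a1 (11.06, others 10.75 to 10.83).

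In APCs labelled transgenic, replicate 1 stood at 0.38 for Col11a1 and 0.51 for Col24a1 where the other 4 libraries were listed at 0, replicate 3 stood at 0.01 for Col26a1 where the others were listed at 0, and replicate 5 was high for Col4a2 (10.74, others 10.51 to 10.57). Among control APCs, replicate 1 was low for Col14a1 (7.90, others 8.32 to 8.49), Col6a2 (10.24, others 10.37 to 10.41) and Col6a4 (2.24, others 3.09 to 3.39), and replicate 4 stood at 0.03 for Col11a1 where the others were listed at 0. The most flags in 1 library were 3, in replicate 5 of the FIPs labelled transgenic and in replicate 1 of the control APCs.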

How the results depend on the processing

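Of the chains called, 23 of 25 kept their call under every alternative between FIPs and APCs of mice labelled transgenic, 16 of 23 in controls, 0 of 1 between genotypes in FIPs and 0 of 1 in APCs. How many of all genes kept theirs was not computed. With the label Col5a1 and Col6a2 lost theirs, both under quantile normalization. In controls 12 chains were higher in FIPs under quantile normalization (7 in the report) and 10 lower with libraries centred on their medians (16 in the report). Leaving out 1 library gave 7 to 8 higher and 14 to 19 lower chains in controls, and 8 to 8 higher and 17 to 18 lower in mice labelled transgenic. Over all genes this gave 7599 to 8413 calls in controls and 6682 to 7461 with the label.

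Between genotypes in FIPs, 0 chains were higher with log2(CPM + 1) or with only the groups compared, and 2 with the replicate block, which added Col4a3 (adjusted p = 0.0353). Without 1 library there were 1 to 2, the 2 being without replicate 5 of the control FIPs. Of all genes 65 passed there, 36 with only the groups compared, 101 with the block and 9 to 125 without 1 library (9 without replicate 4 and 125 without replicate 5 of the FIPs labelled transgenic). In APCs 1 chain was higher with centring and 1 with the block (Col4a4, adjusted p = 0.0494 and 0.0443), and 0 to 2 without 1 library, the 2 being without replicate 1 of the controls. The 1 chain lower in APCs fell to 0 under log2(CPM + 1), the stricter filter, centring, quantile normalization, only the groups compared and the block, and was 0 to 1 without 1 library. Of all genes 1396 passed in APCs, 812 without a filter, 2199 with centring, 0 with only the groups compared and 181 to 2849 without 1 library (2849 without replicate 1 of the APCs labelled transgenic and 181 without replicate 5 of the controls). The interaction had 0 to 1 higher chains and 0 to 331 genes without 1 library (331 without replicate 1 of the APCs labelled transgenic), 3 genes with log2(CPM + 1) and 1 with quantile normalization. The log2 ratio of summed collagen CPM with centring was 0.02 for FIPs against APCs in controls and 0.14 between genotypes in APCs. Without 1 library the ratios were -0.08 to -0.03 in controls, -0.15 to -0.10 with the label, -0.06 to -0.01 between genotypes in FIPs and 0.01 to 0.06 in APCs.

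Directions turned only for differences under 0.2 log2 units. In mice labelled transgenic, Col1a1 was -0.02, Col1a2 -0.05 and Col3a1 -0.01 with centring. Col4a5 and Col5a2, at 0.00 in the report, were at -0.05 each with centring. Under quantile normalization Col6a4 was -0.01 (0.08 in the report), Col6a5 0.04 (-0.10 in the report) and Col9a3 0.02 (-0.06 in the report). Col1a2 was -0.01 without replicate 2 of the FIPs, 0.00 without replicate 1 and -0.02 without replicate 4 of the APCs, and Col3a1 was 0.00 to 0.07 without 1 library, lowest without replicate 4 of the APCs. In controls quantile normalization gave 0.01 for Col5a3 and 0.03 for Col5a1. Between genotypes in APCs, Col8a2 was 0.04 with quantile normalization and -0.27 to 0.01 without 1 library, highest without replicate 1 of the controls. The cause of these shifts was not tested. FIP and APC libraries of a genotype with the same number, which may share mice, deviated in the same direction in all 10 pairs (r from 0.036 to 0.333, 5 over 0.1, and 5 correlating best with their own number). Libraries of different genotypes did not (10 pairs, r from -0.317 to 0.148). Not every correlation was over 0.1, so the numbers were not taken to pair samples. This rule cannot exclude that they do, and the main p-values take no account of shared mice. With a replicate block within genotype, chosen after seeing the data, FIPs against APCs gave 8 higher and 17 lower chains with the label and 7 higher and 17 lower in controls, Col6a5 being added. The interaction then had 1 chain, Col28a1 (0.83, adjusted p = 0.0478), and 25 genes. Centring moved the median of all genes by over 0.1 for the interaction (0.05 in the report, -0.06 with centring). The table lists nothing at or below 1 CPM, which limits what can be said of Col11a1 in APCs, Col13a1, Col24a1 and Col26a1.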
